A study of Mus musculus with 6 samples.

Results

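The genes described here encode mitochondrial ribosomal proteins. They were chosen by symbol, as every gene of the deposited count table named Mrpl or Mrps followed by a number and at most 1 letter. This gave 78 of the 25239 genes of the table. By protein, 51 belong to the large ribosomal subunit and 26 to the small subunit. Mrps18a and Mrps30 carry small-subunit symbols but their proteins sit in the large subunit and were counted there. Mrps36 was placed in neither subunit, because its protein is now known as a part of the 2-oxoglutarate dehydrogenase complex.

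The mitochondrial ribosome makes the few proteins that the mitochondrial genome encodes, all of them core parts of the respiratory chain and ATP synthase. Its RNAs come from mitochondrial DNA, whereas all its proteins are encoded in the nucleus, made in the cytosol and imported. The oocyte supplies the mitochondria of the next generation, and its stored mRNAs include those for these proteins.

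The libraries were made from single germinal vesicle (GV) oocytes, in which the nucleus is still intact, of female CD-1 mice, an outbred strain, aged 4 to 6 weeks. All oocytes were microinjected while inside their cumulus cells and then cultured in maturation medium with serum, follicle-stimulating hormone and pyruvate. The control group received water and the other group a mixture of phthalate metabolites, the products the body makes from plasticizers. Neither its dose nor its components are given in the sources used here. The question was how the injected mixture affected oocyte transcripts.

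There were 3 libraries per group, called oocytes here after their titles. No label names an animal or culture, and the protocol can be read as 1 oocyte per group, so each group was treated as 1 sample and no difference was tested. Spread between libraries may be technical. Libraries held between 252267 and 300917 gene counts, and the spike-in counts of added synthetic RNAs from 292 to 753. Oocyte markers took 2.62% to 3.06% of counts, and 14 of 15 had a count, Sohlh1 being at 0. The 20 cumulus and granulosa markers, RNAs of the surrounding follicle cells, summed to 15 to 41 counts after water and 10 to 26 after phthalate. Without Nr5a2, which held most of them, the sums were 2 to 9 and 2 to 11. Of the 20, 10 were at 0 in every library, among them Amh, Foxl2 and Star. The share of the ribosomal RNA precursor Rn45s was 2.02% to 2.35% in water and 2.89% to 3.54% in phthalate oocytes. With Rn45s left out, the median log2 ratio of the genes described here, given below, was 0.09 as with it. The part of the marker and spike-in differences in their ratios was not tested.

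Counts were found for nearly the whole set. Of the 78 genes, 77 had a count and 72 had one in all 6 libraries. Together they took 12056 of 1676410 gene counts. At equal depth, thinning each library to the smallest total, 75.8 to 76.8 of them were detected after water and 73.8 to 74.0 after phthalate. The unthinned numbers were 76, 76 and 77 against 74, 74 and 74. The groups did not overlap in this number, and the genes involved had few counts. Over all genes, 9355 to 9581 were detected after water at equal depth and 9144 to 9528 after phthalate, and there the groups overlapped. Mrpl19 had 0, 2 and 4 counts after water and 0 in each phthalate oocyte. Mrpl20 had 3, 0 and 1 counts against 0 in each phthalate oocyte. A group count of 0 allows up to 3 counts, and both genes were named after their values were seen.

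Mrps34, which encodes a protein needed for a stable small subunit, was the 1 gene at 0 in all libraries. A count of 0 among 1676410 allows up to 3 counts, or 1.79 counts per 1000000 (CPM). Its annotated gene overlaps Nme3, with 45 counts, and Mapk8ip3, with 69 counts. How the deposited counting treated reads in overlaps is not given in the sources used here, and its part in the 0 was not tested. In all, 46 of the 78 genes overlap another annotated gene and 32 do not.

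Transcript levels were compared between genes per length, as CPM (with totals scaled by TMM, the trimmed mean of M-values) per kilobase of the annotated transcript. For ratios and levels, 58 of the 78 genes passed a filter on low counts, as did 4644 genes in all. The median level of the 58 was 78.2 CPM per kilobase, and the middle 50% lay between 33.3 and 138. The median over the 4644 genes was 32.3, and 44 of the 58 stood above it. Between the highest and the lowest of the 58 the level differed 50.9-fold. The filter itself removes low genes. It works on counts, so a short gene that passes has a higher level than a long gene with the same counts. Transcript length was not compared between the 58 and the 4644 genes. The 20 genes that failed the filter had a median level of 14.5.

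Mrps33, a small-subunit protein with no bacterial counterpart, had the highest level, 320 CPM per kilobase. Its CPM was 407, 265 and 328 after water and 294, 345 and 490 after phthalate. The groups overlapped. Mrps21, a small-subunit protein related to bacterial S21, followed at 255 CPM per kilobase, Mrpl14 at 247 and Mrpl34 at 237. Mrps21 had 104, 118 and 134 CPM after water and 120, 86.2 and 121 after phthalate. Mrpl34, a large-subunit protein, had 130, 134 and 159 CPM against 139, 169 and 132. In both genes the groups overlapped. The 6 oocytes of each of these genes overlapped those of its neighbours, so the order among the leading genes is within the spread.

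Mrpl48, a large-subunit protein, had the most counts of all, which puts it high before length is taken into account. It had 187, 202 and 180 counts after water and 208, 188 and 199 after phthalate. Its gene overlaps Rab6a, with 64 counts over all libraries. On its long annotated transcript this came to 163 CPM per kilobase. Where the mean count was 20 or more, the lowest levels were those of Mrpl57 (33.4 CPM per kilobase), Mrpl47 (32.0), Mrpl35 (30.9) and Mrpl32 (30.01). Each of these genes has an annotated transcript of over 2.8 kilobases, and levels per length depend on that annotation. On the longest principal transcript of each gene Mrps17, of the small subunit, would be lower than all of them, at 16.3 CPM per kilobase in place of 94.8. Mrpl35 had 35, 39 and 26 counts after water and 25, 29 and 38 after phthalate. Mrpl32 had 34, 26 and 22 counts against 13, 29 and 28. The groups overlapped in both, and the lowest oocyte of Mrpl32 was phthalate oocyte 1. The lowest of the 58 was Mrpl17, at 6.30 CPM per kilobase.

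**Figure D1:**
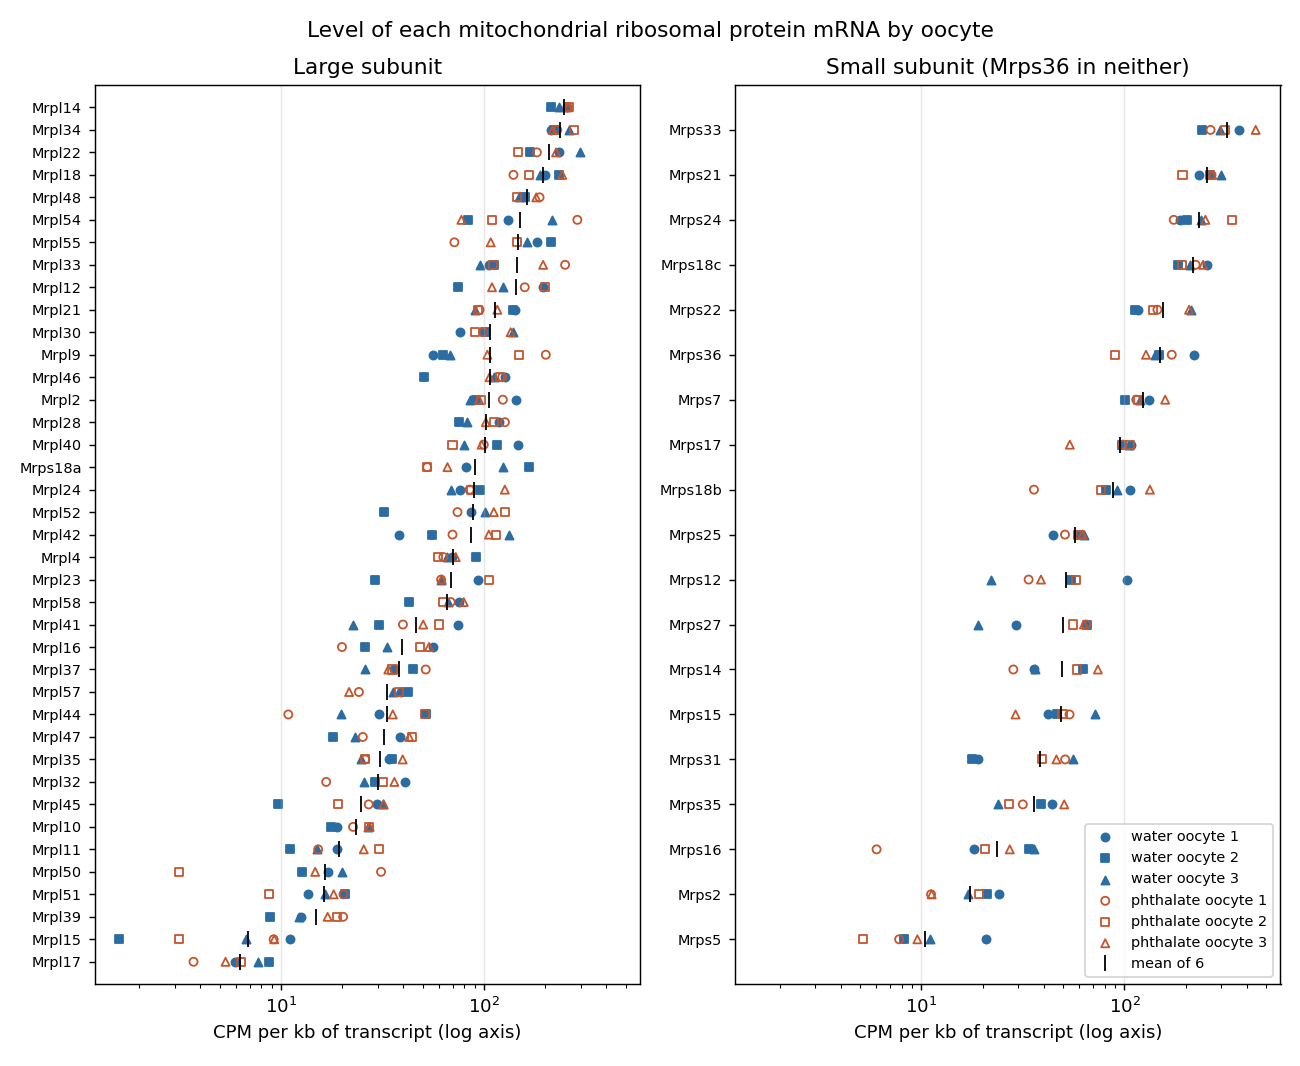
Level of the 58 genes that passed the count filter, in CPM per kilobase of transcript on a log axis, with large-subunit genes on the left. Filled blue points are water oocytes, open orange points are phthalate oocytes and black ticks are the means of 6, which run from 6.30 for Mrpl17 to 320 for Mrps33.

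As a group, the mRNAs took nearly the same share of the oocyte's counts with and without the mixture. The share was 0.774%, 0.653% and 0.707% after water (oocytes 1, 2 and 3) and 0.718%, 0.726% and 0.744% after phthalate. Water oocyte 1 was the highest of all and water oocyte 2 the lowest, so the phthalate values lay inside the water range. The mean was 0.711% ± 0.0603 (SD over 3 libraries) for water and 0.729% ± 0.0134 for phthalate.

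In sums, the genes took 6056 of 854185 counts in the water group, or 0.709% (95% exact binomial interval 0.691 to 0.727), and 6000 of 822225 in the phthalate group, or 0.730% (0.711 to 0.748). The phthalate to water ratio was 1.03 (95% exact interval 0.993 to 1.07). These intervals cover counting error only. PCR copies and read mates, if counted, would make the true error wider. On the log2 scale the ratio was 0.042, and it was -0.019 without water oocyte 2 and 0.10 without water oocyte 1. Limited to the genes that overlap no other gene, it was -0.022.

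In this sum the ratios of both subunits were close to 1. The large subunit took 0.439% of counts in water and 0.459% in phthalate, a ratio of 1.04, and the small subunit 0.258% and 0.262%, a ratio of 1.02. The counts of the large subunit divided by those of the small subunit were 1.80, 1.68 and 1.63 after water and 2.03, 1.72 and 1.57 after phthalate. Phthalate oocyte 1 was the highest and phthalate oocyte 3 the lowest of the 6, and the groups overlapped. Cytosolic ribosomal protein genes, which serve the ribosomes outside mitochondria, took 2.90% in water and 3.10% in phthalate, a ratio of 1.07.

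**Figure D2:**
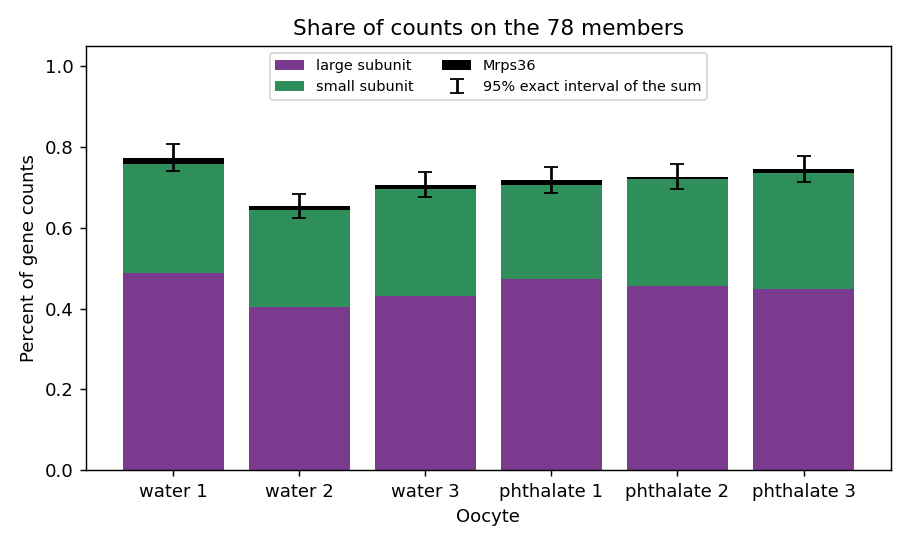
Percent of all gene counts on the 78 genes in each oocyte, split into large subunit, small subunit and Mrps36, with the 95% exact interval of the sum. The 3 phthalate oocytes, at 0.718% to 0.744%, lie within the range of the water oocytes, 0.653% to 0.774%.

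Gene by gene, most ratios were near 1. For each gene the counts of the 3 oocytes were summed per group, divided by TMM-scaled totals and compared as phthalate over water on a log2 scale. The median of the 58 genes was 0.09, with the middle 50% between -0.22 and 0.29. Over all 4644 genes the median was 0.009, with the middle 50% between -0.23 and 0.24. Above 0 were 34 of the 58 genes (58.6%), against 51.2% of all genes. With library totals these were 33 of the 58 and 49.0%. The median of the 58 was -0.012 without water oocyte 2 and -0.048 without phthalate oocyte 3, so its sign rested on these libraries.

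A ratio was called past a fold of 1.5 in either direction, which is 0.585 on the log2 scale. Of the 58 genes, 5 were past it toward phthalate, or 8.62%, and the background was 6.96% of the 4644 genes. Toward water 4 were past it, or 6.90%, against a background of 8.14%. The remaining 49 lay within it. Both shares are near the background. The 5 toward phthalate include Mrpl39, which passed the count filter only through the phthalate libraries. Just past the limit were Mrps27 (0.66) and Mrps16 (-0.70), and just within it Mrps31 (0.56) and Mrps2 (-0.55). These shares moved with single libraries. Without water oocyte 1 the number toward phthalate was 10, or 17.2%, against 9.41% of the 4644 genes. Without phthalate oocyte 2 the number toward water was 8, or 13.8%, against 10.2%.

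In few genes did the 3 CPM values of a group all lie on one side of the other group. Higher in every phthalate oocyte were 3 of the 58 genes (Mrpl9, Mrpl39 and Mrpl14), or 5.17%, against 5.15% of the 4644 genes. Lower in every phthalate oocyte were 2 (Mrps18a and Mrpl55), or 3.45%, against 5% of the 4644 genes. These shares, too, are near or under the background. Mrpl39 passed the count filter only through the phthalate libraries, so the filter set its groups apart. Mrpl14 was apart by a narrow margin and far from the fold limit, with 165, 138 and 152 CPM after water and 166, 169 and 167 after phthalate.

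**Figure D3:**
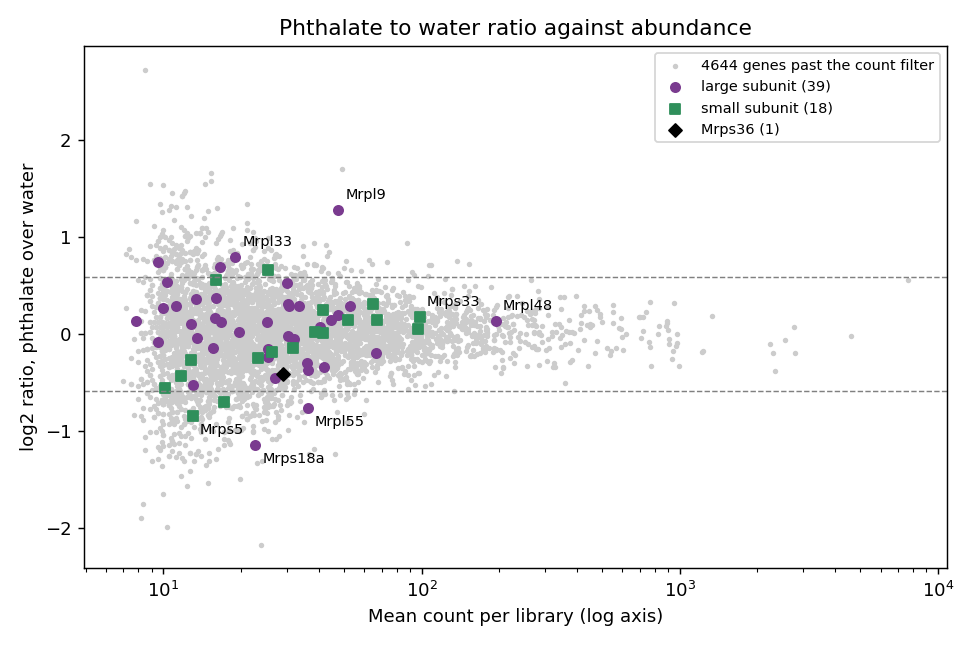
Log2 ratio of phthalate over water against the mean count per library on a log axis. Grey points are the 4644 genes past the filter, coloured points the 58 mitochondrial ribosomal protein genes, and dashed lines 1.5-fold. Among the 58, Mrpl9 (1.28) and Mrps18a (-1.14) lie farthest out.

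The promoters were searched for short motifs, which the choice by symbol did not use. RefSeq promoter sequences (GRCm38.p6), from 250 bases before to 50 after the start, were found for 69 of the 78 genes, 75 promoters in all. Searched on both strands, the ETS motif CCGGAAG was in 34.7% of them, against 8.86% of all 32851 promoters of the same length and 20.4% of the promoters of the genes that passed the count filter. The NRF1 motif GCGCATGC was in 10.7%, against 2.71% and 6.50%, and the YY1 motif AAGATGG in 17.3%, against 6.34% and 8.61%. The SP1 motif GGGCGG was in 52.0%, against 35.7% and 63.6%, and the ERR motif CAAGGTCA in 2.67%, against 1.56% and 0.902%. No motif is contained in another, although sites can share bases. NRF1 and the ETS factor GABP are known regulators of nuclear genes for mitochondrial proteins. Median GC content was 58.7% in these promoters, 52.7% in all promoters and 61.0% in those of the genes that passed the filter.

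The windows of 30 bases below show NRF1 and ETS matches of Mrpl9, Mrpl39 and Mrpl33. These genes had the highest ratios of the 58 and are described next. Of the 8 genes with an NRF1 match that passed the count filter, 4 had ratios above 0. Mrpl39 passed that filter only through the phthalate libraries. The windows are read on the gene's strand with the matched letters in capitals.
Mrpl9, chr3:94443297-94443326: gaggcgcagctGCGCATGCGCggggtcctt
Mrpl39, chr16:84735349-84735378: aggagaggcGCGCATGCGCccccgcgtggc
Mrpl33, chr5:31613928-31613957: taccggaacccGCGCATGCcCCGGAAGtag
Mrpl39 is on the minus strand and the other genes are on the plus strand. In Mrpl9 and Mrpl39 the motif matches on both strands, overlapping itself, and in Mrpl33 an ETS match follows the NRF1 match after 1 base. The match of Mrpl9 begins 28 bases before the start in RefSeq, which lies inside the gene as annotated in GENCODE and given below. The windows of Mrpl39 and Mrpl33 lie wholly inside their genes as annotated in GENCODE, at chr16:84717576-84735742 and chr5:31596935-31664384. Their matches begin before the start in RefSeq but not in GENCODE.

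Mrps18a, with the lowest ratio of the 58, and Mrps27, past the fold on the other side, have the same arrangement of motifs, an ETS match before the start and a YY1 match just after it. Both lie on the plus strand.
Mrps18a, ETS, chr17:46110967-46110996: acacccctgctCCGGAAGcggaagtgcaca
Mrps18a, YY1, chr17:46111004-46111033: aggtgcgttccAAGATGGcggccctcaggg
Mrps27, ETS, chr13:99344727-99344756: tggtaggaccaCTTCCGGcggaggcgggct
Mrps27, YY1, chr13:99344789-99344818: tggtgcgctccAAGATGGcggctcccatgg
The ETS match of Mrps27 reads on the opposite strand. Mrpl55, which was also lower in every phthalate oocyte, had no ETS, NRF1 or YY1 match in its window.

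Among the 58 genes the highest ratio was that of Mrpl9, whose protein is related to L9 of the bacterial large subunit. It is annotated at chr3:94443318-94451130 on the plus strand (GRCm38). It had 25, 30 and 31 counts after water and 84, 72 and 43 after phthalate. In CPM this was 89.9, 101 and 109 against 325, 239 and 167. Every phthalate oocyte was above every water oocyte, although phthalate oocyte 3 stood well below the other 2. The SD over 3 libraries was 9.70 CPM for water and 78.8 CPM for phthalate, around a phthalate mean of 244.

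The log2 ratio of Mrpl9 was 1.28 (95% exact interval 0.91 to 1.66), a fold of 2.43. With counts halved to read pairs the interval was 0.76 to 1.84. Leaving out 1 oocyte at a time gave values between 1.04 (phthalate oocyte 1 left out) and 1.47 (phthalate oocyte 3 left out). Its gene overlaps Oaz3, an antizyme gene of spermatids, which had 10 counts over all libraries. Without Mrpl9, the summed share of the remaining genes had a ratio of 1.01.

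Mrps18a had the lowest ratio of the 58 genes. It is 1 of 3 mammalian relatives of bacterial protein S18, and the only one of them in the large subunit. Its gene lies at chr17:46110986-46128910 on the plus strand. The counts were 20, 44 and 31 after water and 12, 14 and 15 after phthalate, or 72.0, 148 and 109 CPM against 46.4, 46.4 and 58.4. All phthalate values lay below the lowest water value, and water oocyte 2 was the highest. The log2 ratio was -1.14 (-1.71 to -0.60), 2.20-fold lower. It was -0.86 without water oocyte 2. Its overlapping gene, Rsph9, had 22 counts in all.

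The other relatives of S18, both in the small subunit, were close to 0. Mrps18b had 32, 26 and 28 counts after water and 10, 25 and 37 after phthalate, a log2 ratio of -0.18 (-0.66 to 0.28). Mrps18c had 45, 35 and 38 counts against 37, 37 and 40, a log2 ratio of 0.02 (-0.36 to 0.41). In both genes the groups overlapped, and Mrps18b ranged widely within the phthalate group, its ratio being -0.69 without phthalate oocyte 3 and 0.15 without phthalate oocyte 1.

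Mrpl55, a large-subunit protein related to bacterial L31, was also lower in every phthalate oocyte. Its gene lies at chr11:59202486-59206134 on the plus strand and overlaps no annotated gene. It had 158, 185 and 141 CPM after water and 61.8, 126 and 93.4 after phthalate. The log2 ratio was -0.76 (-1.18 to -0.35), and it was -1.06 on leaving out phthalate oocyte 2 and -0.55 on leaving out phthalate oocyte 1. The latter value is within 1.5-fold.

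Mrpl39, a large-subunit protein related to a tRNA synthetase, had 8, 6 and 8 counts after water and 12, 13 and 10 after phthalate. The groups did not overlap, but it passed the count filter only through the phthalate libraries. A gene that passes in this way had to differ. Its log2 ratio was 0.74, with an interval that includes 0 (-0.07 to 1.58).

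Past the fold but with overlapping groups were 5 genes. Mrpl33, of the large subunit, had 14, 16 and 13 counts after water and 31, 16 and 24 after phthalate, a log2 ratio of 0.80 (0.23 to 1.38). Its phthalate oocyte 2, at 53.0 CPM, was just under the highest water oocyte, at 53.7, and without phthalate oocyte 1 the ratio was 0.51. Mrpl11, at the base of the stalk that binds translation factors, had 16, 10 and 13 counts against 12, 28 and 20, a log2 ratio of 0.69 (0.09 to 1.31). Here phthalate oocyte 1 was among the water values, and without phthalate oocyte 2 the ratio was 0.45. Mrps27, an RNA-binding protein of the small subunit, had 15, 36 and 10 counts against 31, 31 and 30, a log2 ratio of 0.66 (0.18 to 1.16). The phthalate oocytes were alike, and water oocyte 2, at 121 CPM, stood above all 3 of them. Leaving out that water oocyte gave 1.34, and leaving out water oocyte 3 gave 0.35.

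Mrps5, at the entry of the mRNA channel, had 26, 11 and 14 counts after water and 9, 7 and 11 after phthalate. The log2 ratio was -0.85 (-1.58 to -0.15), and without water oocyte 1, the highest oocyte, it was -0.38. Mrps16, a relative of bacterial S16, had 13, 26 and 26 counts against 4, 16 and 18. Its log2 ratio was -0.70 (-1.32 to -0.10), and without phthalate oocyte 1, the lowest oocyte, it was -0.32. In both, 1 library carried much of the difference.

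**Figure D4:**
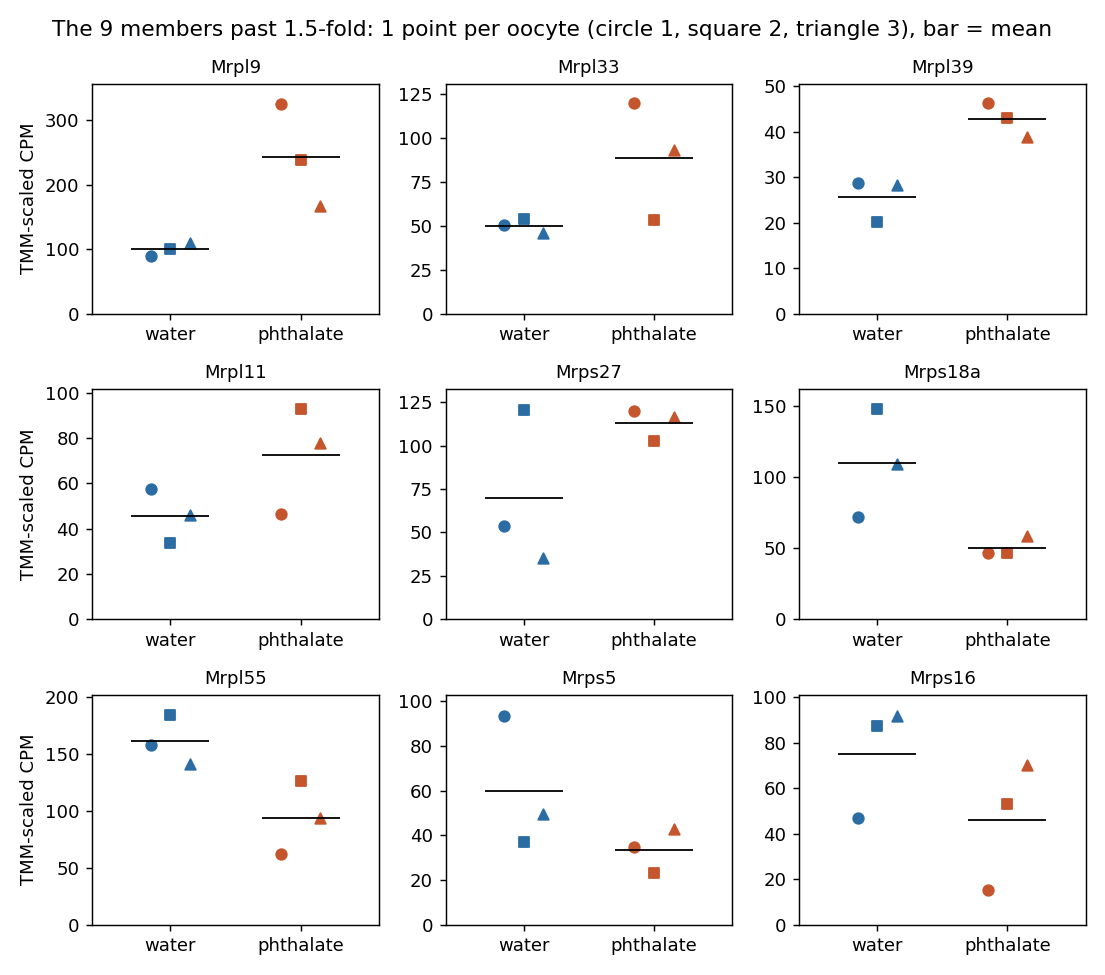
TMM-scaled CPM of the 9 genes past 1.5-fold in each oocyte, with axes from 0; the shape gives the oocyte number and the bar the mean of 3. Mrpl9, Mrpl39, Mrps18a and Mrpl55 have groups that do not overlap, and in the other 5 at least 1 oocyte lies within the range of the other group.

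The exact interval excluded 0 for 10 of the 58 genes, or 17.2%, against 22.7% of the 4644 genes. With counts halved to read pairs it did so for 4, Mrpl9, Mrpl33, Mrps18a and Mrpl55, or 6.90%, against 9.3% of the 4644 genes. Both shares are under the background. Mrpl48, with the most counts, had a log2 ratio of 0.14 (-0.03 to 0.30), and Mrps33 had 0.17 (-0.06 to 0.41). Mrps24, a small-subunit protein at the mRNA entry, had 52, 60 and 67 counts after water and 45, 102 and 64 after phthalate, a log2 ratio of 0.31 (0.02 to 0.60). Its groups overlapped, and without phthalate oocyte 2 the ratio was 0.02. Mrpl47 had 36, 18 and 22 counts against 22, 45 and 37, a log2 ratio of 0.52 (0.08 to 0.97). It overlaps Actl6a and Ndufb5, with 112 and 202 counts over all libraries. Its groups overlapped too, with water oocyte 1 at the level of phthalate oocyte 3 in counts and phthalate oocyte 1 among the water values.

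The stalk of the large subunit, where translation factors dock, includes Mrpl10, Mrpl11 and Mrpl12. Mrpl12, its mobile part, had 71, 29 and 46 counts after water and 54, 79 and 37 after phthalate, a log2 ratio of 0.29 (-0.04 to 0.62). Water oocyte 2 had the fewest counts and phthalate oocyte 2 the most, and the groups overlapped. The ratio was 0.69 without water oocyte 1 and -0.002 without water oocyte 2. Mrpl10, the anchor of the stalk, had 9, 9 and 13 counts against 10, 14 and 12, a log2 ratio of 0.29 (-0.45 to 1.03).

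Near the exit of the new protein, Mrpl45 tethers the ribosome to the inner membrane. It had 20, 7 and 22 counts after water and 17, 14 and 20 after phthalate, a log2 ratio of 0.13 (-0.46 to 0.73). Mrpl44, a relative of ribonuclease III, had 12, 22 and 8 counts against 4, 22 and 13, a log2 ratio of -0.03 (-0.70 to 0.63). Mrpl58, which can release stalled chains as a peptidyl-tRNA hydrolase, had 54, 33 and 49 counts against 46, 49 and 53, a log2 ratio of 0.19 (-0.15 to 0.54). The groups overlapped in all 3 genes.

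Among the remaining genes with a known role, Mrps12, of the decoding centre, had 23, 13 and 5 counts after water and 7, 14 and 8 after phthalate, a log2 ratio of -0.43 (-1.17 to 0.29) that was 0.20 without water oocyte 1. Mrps22, a small-subunit protein with no bacterial counterpart, had 39, 40 and 72 counts against 45, 50 and 64, a log2 ratio of 0.15 (-0.18 to 0.48). Mrps36 had 43, 31 and 28 counts against 31, 19 and 23, a log2 ratio of -0.41 (-0.86 to 0.04). Mrpl41 had 16, 7 and 5 counts against 8, 14 and 10. Mrpl3, at the peptidyl transferase centre, and Mrps30 were under the filter, with 7, 5 and 11 against 5, 6 and 17, and 7, 2 and 9 against 2, 7 and 5. All these groups overlapped. Mrpl57, of the large subunit, had a log2 ratio of -0.45 (-0.92 to 0.02) from 31, 36 and 29 counts against 18, 33 and 16.

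By subunit, the median log2 ratio was 0.13 over 39 large-subunit genes, of which 24 were above 0 and 15 below, and 0.02 over 18 small-subunit genes, of which 10 were above and 8 below. The difference of the medians was 0.11. It was -0.018 without phthalate oocyte 1 and -0.076 where the mean count was at least 20, so the subunits had no stable order.

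The genes were further grouped into relatives of bacterial ribosomal proteins and proteins added in mitochondria, after the counts were seen. The grouping follows the symbol number, except that Mrps24, Mrps28, Mrpl47 and Mrpl55 are relatives of bacterial S3, S1, L29 and L31. In the small subunit, 6 of 6 added proteins that passed the count filter had ratios above 0 (5 of 6 when scaled by library totals), from 0.01 to 0.66 with a median of 0.16, while 51.2% of all genes were above 0. That count rested on phthalate oocyte 3: without it 3 of the 6 were above 0, with Mrps22, Mrps33 and Mrps35 below, against 48.6% of all genes. Leaving out any other oocyte left 5 or 6 above 0. Of the 3 added proteins under the filter, Mrps23 and Mrps26 were below 0 and Mrps34 had no ratio. Of the 12 relatives of bacterial proteins, 4 were above 0 and 8 below, with a median of -0.21, and without phthalate oocyte 3 there was 1 above 0. The difference of the medians was 0.37. It was 0.12 with phthalate oocyte 3 left out and 0.12 where the mean count was at least 20, and 0.51 with phthalate oocyte 1 left out. In the large subunit the medians were 0.14 for 15 added proteins and 0.09 for 24 relatives of bacterial proteins.

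**Figure D5:**
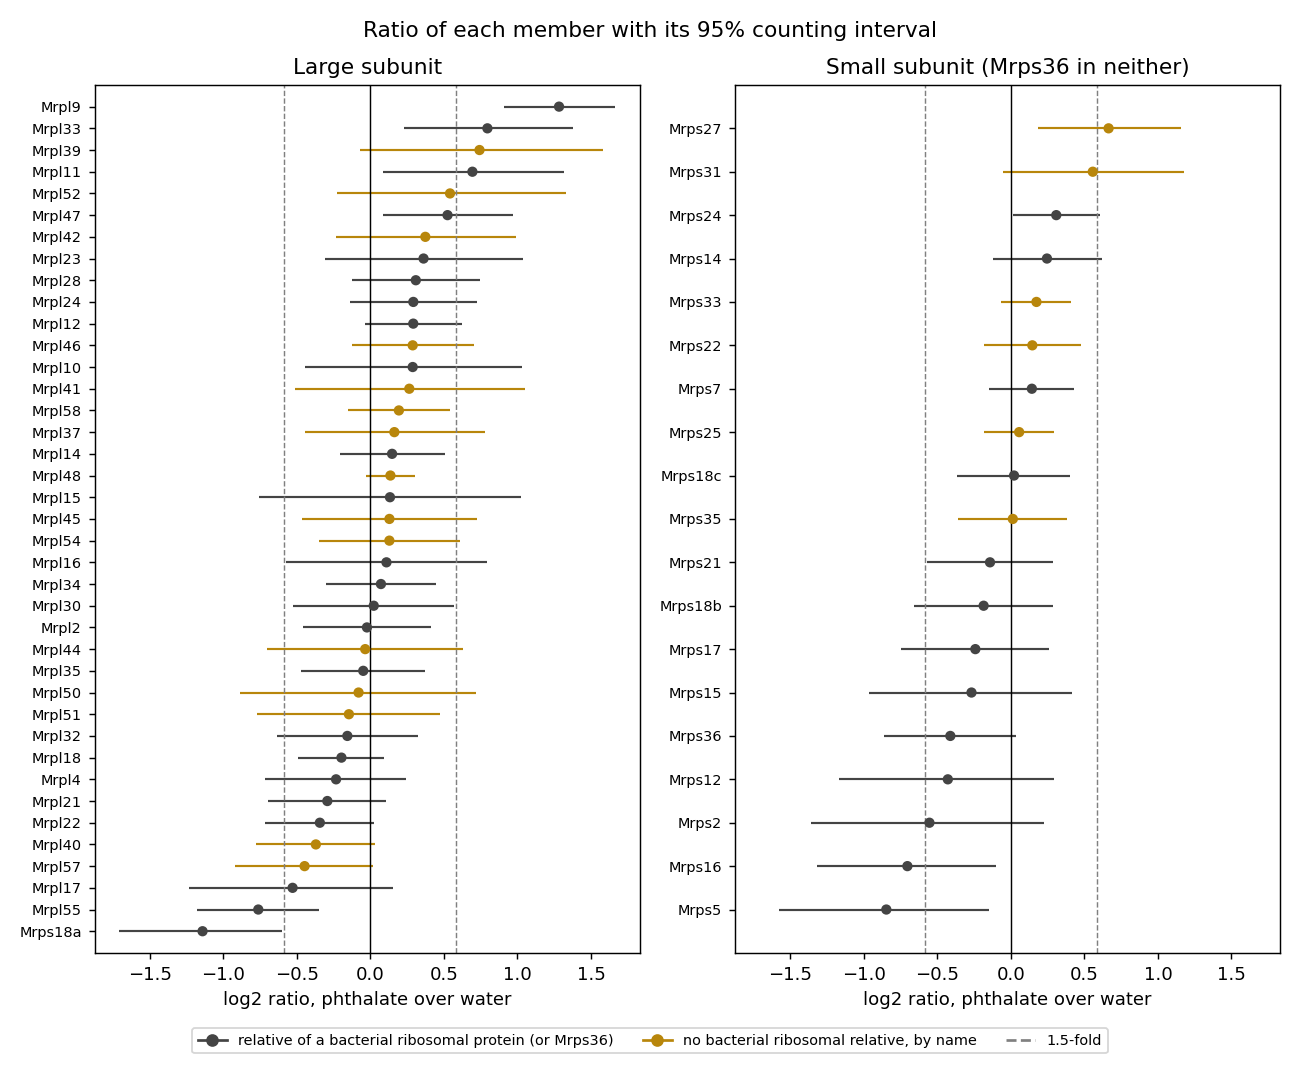
Log2 ratio of phthalate over water of each of the 58 genes with its 95% exact interval, which covers counting error only. Brown marks proteins with no relative among bacterial ribosomal proteins; in the right panel the 6 brown points lie above 0 (5 when scaled by library totals, 3 without phthalate oocyte 3), from 0.01 to 0.66, while most intervals in both panels include 0.

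The 20 genes under the count filter had from 0 to 57 counts over all libraries, 12 of them in the large and 8 in the small subunit. Their ratios were above 0 for 6 and below 0 for 13, and Mrps34 had none. Mrpl38, a large-subunit protein, stood out among them and is named after its values were seen. It had 4, 3 and 5 counts after water and 15, 8 and 19 after phthalate. The groups did not overlap, and the log2 ratio was 1.88 (0.93 to 2.94), which became 1.55 on leaving out phthalate oocyte 3 and 2.24 on leaving out phthalate oocyte 2. Its gene overlaps no annotated gene.

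Variation between oocytes was given by the coefficient of variation over the 6 of them. Its median was 25.2% for the 35 genes whose mean count reached 20, up to 194 for Mrpl48, and 24.0% for all genes with mean counts between these values. It was lowest for Mrpl14 at 7.78% and highest for Mrpl54 at 55.5%. Mrpl54 had 22, 15 and 37 counts after water and 45, 20 and 12 after phthalate, so its spread lay within the groups. Across the 58 genes, the root-mean-square log2 difference averaged 0.727 for pairs of libraries from different groups, 0.720 for pairs of water oocytes and 0.702 for pairs of phthalate oocytes. Pairs from different groups were thus about as far apart as pairs from the same group.

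Other genes of mitochondrial translation were mostly under the count filter. Of 5 ribosomal subunits with other symbols, 2 passed it. Gadd45gip1, which encodes a large-subunit protein, had 102, 103 and 111 counts after water and 234, 174 and 99 after phthalate, a log2 ratio of 0.75 (0.55 to 0.96). Phthalate oocyte 3, at 385 CPM, was below the highest water oocyte, at 391, so the groups overlapped. Dap3, a GTP-binding protein of the small subunit, had 270 and 302 counts in the water and phthalate sums, a log2 ratio of 0.23 (-0.01 to 0.48).

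Of 26 ribosome assembly factors, 6 passed the filter, 2 above 0 and 4 below, with a median log2 ratio of -0.19 and 0 past 1.5-fold. Nsun4, a methyltransferase of the small-subunit ribosomal RNA, had 228 and 174 counts, a log2 ratio of -0.32 (-0.61 to -0.03), and its partner Mterf4 had 196 and 179, a log2 ratio of -0.06 (-0.36 to 0.24). Of 15 translation factors, 4 passed, and 1 was past 1.5-fold, the initiation factor gene Mtif3 with 29 and 45 counts and a log2 ratio of 0.71 (0.00 to 1.43). Of 20 genes for mitochondrial aminoacyl-tRNA synthesis, 2 passed, Lars2 with 142 and 142 counts and Fars2 with 68 and 80. Of 13 genes for mitochondrial transcription and genome maintenance, 1 passed, Ssbp1 with 50 and 43. The 75 cytosolic ribosomal protein genes that passed had a median log2 ratio of 0.12, with 49 above and 26 below 0, and 4 (5.33%) and 1 (1.33%) past 1.5-fold toward phthalate and water, against 6.96% and 8.14% of all genes.

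Levels and ratios by motif are given as a description. The 20 genes with an ETS match that passed the count filter had a median level of 102 CPM per kilobase and a median log2 ratio of -0.14, with 9 above 0. The 34 genes without an ETS match had a median level of 53.0 and a median log2 ratio of 0.15, with 22 above 0. The 8 genes with an NRF1 match had a median level of 58.8 and a median log2 ratio of 0.07, with 4 above 0. The 46 without it had 87.4 and 0.09. The 10 genes with a YY1 match had a median level of 68.9 and a median log2 ratio of 0.15, with 6 above 0. The 44 without it had 88.6 and 0.06. The high ratios of Mrpl9, Mrpl33 and Mrpl39 are thus not shared by all genes with an NRF1 match.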

How the data were processed

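The file the authors deposited holds raw counts by gene symbol for 6 libraries, with 92 spike-in RNAs. Per the labels' protocols, Smart-seq3 cDNA was primed with oligo(dT), amplified by PCR and sequenced as 150 bp read pairs. The submitters' processing notes name cutadapt, Trimmomatic, HISAT2, DESeq2 and build mm10. The counting tool, annotation, strand use and handling of molecular identifiers are not given in the sources used here. Small counts were mostly even (62.4% of those of the described genes from 1 to 20), so both mates of a pair may have been counted.

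Spike-ins stayed out of totals. Genes were filtered with filterByExpr (edgeR 4.0.16, R 4.3.3, minimum count 10, minimum total 15), over 4644 genes. Group ratios are log2 ratios of summed counts over TMM-scaled totals, with a sum of 0 set to 3 counts and no ratio where both sums were at most 3. Intervals are exact (Clopper-Pearson), at 95%. Summed shares used library totals. Transcript length is the median of the principal protein-coding transcripts in GENCODE M21, and overlaps are from GENCODE M21 or RefSeq on either strand. The ratio and interval code was tested on simulated counts.

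Genes and lists were chosen with earlier results of these data known. Values per oocyte are given by rule for the 4 genes with the highest and lowest ratios and levels among those with a mean count of at least 20, for genes past 1.5-fold whose groups do not overlap, for genes with a listed role and a mean count of at least 5, and for genes at 0. Mrpl17, Mrpl19, Mrpl20, Mrpl33, Mrpl38, Mrpl48 and Mrpl54 were added after their values were seen. So were the transcript length, the overlaps from both annotations and TMM-scaled CPM for the overlap of groups. On CPM from library totals the number of genes with groups apart was also 5, and with DESeq2 size factors it was 4. Alternatives covered scaling, DESeq2 1.42.0 size factors, the filter, the fold, Rn45s, oocyte weights, overlapping genes and each oocyte left out.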

Additional observations from a re-analysis of the deposited data

How the results depend on the processing

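No paired analysis was possible because no result here comes from a test: a group was treated as 1 sample, as its 3 numbered libraries name no animal or culture. Limits for the group values were the spread between libraries for medians, the counting interval for the summed share and 1.5 times for counts. Scaling by library totals or DESeq2 size factors, leaving out Rn45s and equal weights per oocyte left the group values within these limits. Without a count filter, 9 genes were past 1.5-fold lower and the large minus small subunit difference of medians was 0.31. At a mean count of at least 20, 2 were past the fold higher and 2 lower, the subunit difference was -0.076, and the difference between added and bacterial-type small-subunit proteins was 0.12. At 2-fold, 1 gene was higher and 1 lower. Without genes that overlap another gene, 2 were past the fold higher, 2 had groups apart, the log2 ratio of the summed share was -0.022 and the subunit difference was 0.30. The grouping of small-subunit proteins and leaving out Mrpl9 were chosen after seeing the data, and without Mrpl9 no group value moved beyond these limits.

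With each oocyte left out in turn, the median log2 ratio ranged from -0.048 to 0.13 and the log2 ratio of the summed share from -0.019 to 0.10. Counts ranged from 4 to 10 past the fold higher (6.90% to 17.2%, against 7.60% to 9.41% of all genes), from 3 to 8 lower (5.17% to 13.8%, against 8.46% to 10.5%) and from 8 to 13 with groups apart (13.8% to 22.4%, against 18.2% to 24.5%), which fewer libraries make easier. The difference between added and bacterial-type small-subunit proteins ranged from 0.12 to 0.51. Of 33 named genes, 16 changed sign on leaving out an oocyte, none of them past 1.5-fold in all libraries together. Of 330 values of single genes under alternatives, 326 stayed within the exact interval of the gene's ratio from all libraries. The 4 values outside it were those of Mrpl12 (0.69 without water oocyte 1), Mrps27 (1.34 without water oocyte 2), Mrps22 (0.50 without water oocyte 3) and Mrps18b (-0.69 without phthalate oocyte 3). This interval covers counting error only and is wide at low counts, as for Mrpl3 (-0.49 to 1.22). The values were not compared with the spread between libraries. Depth limits what can be seen: 20 of the 78 genes had too few counts for the filter.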
